A study of Mus musculus with 3 samples.

Results

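The kinesin genes of the mouse heart were taken from the deposited gene table as all symbols that begin with Kif or Kifc followed by a digit, which gave 41 of 18038 genes. One of them, Kif1bp, encodes a protein that binds kinesins and is not a motor itself, so 40 of the 41 are kinesin genes proper. The samples were 3 preparations of heart RNA from C57BL/6J mice, an inbred laboratory strain, all wild-type and taken at day 9 after birth, called hearts 1, 2 and 3 after their replicate numbers. No genotype, treatment or age differed between them. They form a single group, so kinesins were compared with one another within hearts, and each kinesin was compared between hearts. The labels do not state whether each sample came from a separate animal, litter or a pool, so p-values cover only how far these samples spread, and that spread may be technical.

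Kinesins are motor proteins that use ATP to move along microtubules or to take them apart. Transport kinesins carry mitochondria, vesicles, lysosomes and RNA, mostly toward the microtubule plus end at the cell periphery. Mitotic kinesins build the spindle, move chromosomes and complete cytokinesis, and their transcripts accumulate in dividing cells. Ciliary kinesins carry cargo into the primary or motile cilium. In the heart the first postnatal weeks are a time when cardiomyocytes leave the cell cycle while vascular and stromal cells still divide, and the study itself concerns modified microtubules, the tracks of these motors.

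Total counts were 17766501, 18643408 and 18768094 in hearts 1, 2 and 3. Heart 1 stood apart in genes of the lung airway: 11 such markers summed to 2494 TPM in heart 1 against 3.88 and 12.0 TPM in hearts 2 and 3. TPM, made here by rescaling each heart's deposited FPKM so that it sums to 1000000, is the scale used for levels between genes, and CPM is the count per 1000000 counts. Cardiomyocyte markers summed to 79310, 78200 and 81600 TPM, and thymocyte and lymphocyte markers to 3.07, 4.74 and 5.94 TPM. Because these are bulk samples, fewer cells of a type and less RNA per cell cannot be told apart.

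At least 1 CPM in every heart was found for 36 of the 41 genes of the set, Kif1bp among them. The share over all genes in the table was 71.8%. The 5 of the set that missed this level were Kif9, Kif17, Kif19a, Kif27 and Kif28. By their known roles the members were divided into 13 mitotic, 13 transport and 10 ciliary genes and 5 others, of which 13, 13, 6 and 4 were detected in that order. The family summed to 691.4, 770.6 and 651.2 TPM in hearts 1, 2 and 3. Transport genes held 60.6% ± 2.56 of this sum (SD, n = 3 for all means), mitotic genes 21.6% ± 3.10, the other genes 12.2% ± 0.375 and ciliary genes 5.62% ± 0.372. Kif1bp, which is not a motor, is counted in the family sum and among the others, at 4.81% ± 0.311 of the sum. Levels within the family spanned from 0.104 to 166.9 TPM. Of the 35 neighbouring pairs in the order of detected genes, 29 overlapped in their values over the hearts, so the order of near neighbours is not resolved.

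**Figure D1:**
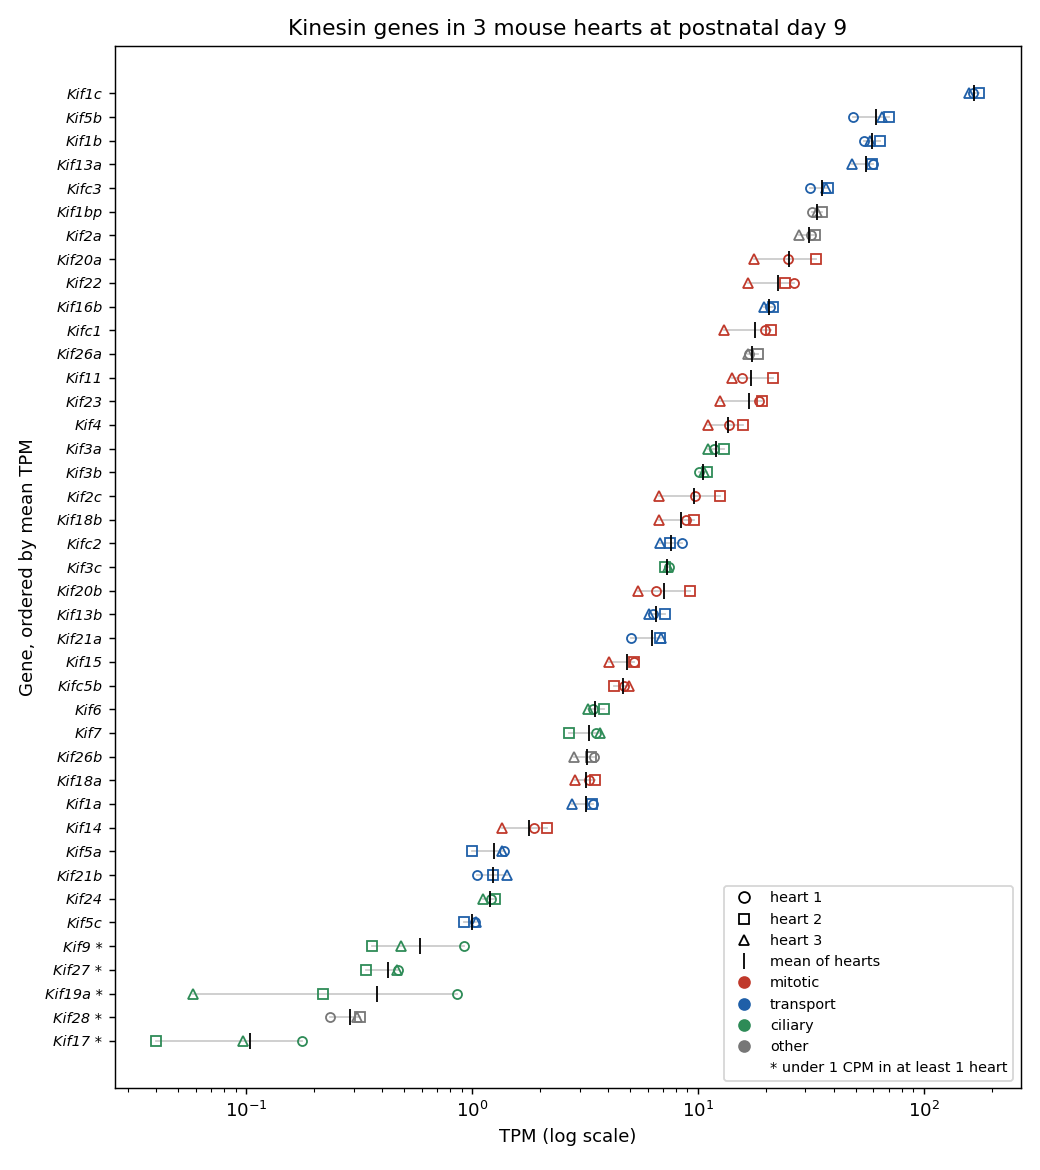
TPM on a log scale (x axis) of the 41 genes of the set (y axis, ordered by mean). Open symbols are hearts 1, 2 and 3, a black bar is the mean, colours give the role and grey lines the range over hearts. Kif1c stands alone at 159.2 to 176.6 TPM, and an asterisk marks the 5 genes under 1 CPM in at least 1 heart.

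The highest kinesin transcript was Kif1c, a fast vesicle motor of the kinesin-3 class (chromosome 11, 70700323 to 70731970, plus strand, GRCm38). It was at 164.9, 176.6 and 159.2 TPM in hearts 1, 2 and 3, a mean of 166.9 ± 8.87 TPM that is 23.7% of the family sum. All 3 values lay above every value of every other member. Kif1c alone ranked at place 857 among all genes of the table.

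Behind it came Kif5b, Kif1b and Kif13a, which overlapped with one another. Kif5b, the ubiquitous heavy chain of conventional kinesin-1 and a carrier of mitochondria, was at 48.9, 70.0 and 65.6 TPM. Kif1b, a carrier of mitochondria and vesicle precursors (chromosome 4, 149176159 to 149307733, minus strand), was at 54.7, 64.1 and 57.9 TPM. Kif13a, which moves recycling endosomes (chromosome 13, 46749087 to 46931302, minus strand), was at 59.5, 59.3 and 48.2 TPM. Heart 1 was low for Kif5b and heart 3 for Kif13a, and together with Kif1c the 4 genes held 48.8% of the family sum.

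To compare paralogs and some other chosen pairs of genes, an edgeR quasi-likelihood fit took the heart as a block and corrected for gene length. Adjustment of p was over the 31 pairs compared. Of these, 29 (20 with the first gene higher, 9 with the second) passed the threshold of 0.05. Pairs of other genes were not tested, so this count has no background share and shows nothing particular to kinesins. In the kinesin-3 class Kif1c exceeded Kif1b, with a log2 ratio of Kif1b to Kif1c of -1.50 (SE 0.0789, edgeR adjusted p = 1.58e-06, lower in 3 of 3 hearts). Both exceeded Kif1a, the carrier of synaptic vesicle precursors, by log2 ratios of 5.71 for Kif1c and 4.20 for Kif1b. Kif13a exceeded its paralog Kif13b by 3.09 (SE 0.0927, edgeR adjusted p = 1.95e-07), and Kif16b, a motor of early endosomes, exceeded Kif13b by 1.67, or 0.97 without a length correction. Kif1a was at 3.44, 3.40 and 2.78 TPM.

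The kinesin-1 genes showed the same order of ubiquitous over neuronal forms. Kif5b exceeded Kif5a by a log2 ratio of 5.61 and Kif5c by 5.92 (SE 0.202, 95% interval 5.44 to 6.41, edgeR adjusted p = 3.27e-07). The neuronal forms were at 1.25 ± 0.215 TPM for Kif5a and 1.00 ± 0.0693 TPM for Kif5c. These 2 were not distinguished by the test, with a log2 ratio of 0.31 (95% interval -0.13 to 0.75, edgeR adjusted p = 0.141), though Kif5a was higher in 3 of 3 hearts. Neuron markers, which any cardiac nerve or ganglion in the sample would bring, summed to 75.9, 73.1 and 75.7 TPM, with 6 of 12 detected and none at 0. Uchl1 alone was at 47.8, 46.4 and 45.5 TPM, so the sum mainly follows that gene. The part of the neuron markers in the levels of Kif1a, Kif5a and Kif5c was not tested.

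Kinesin light chains, which join kinesin-1 to its cargo, were led by Klc1 at 136.3 ± 5.42 TPM. Klc1 exceeded Klc2 by 1.72, Klc4 by 2.29 and Klc3 by 7.67 in log2 ratio, all in 3 of 3 hearts. With the longest annotated transcripts as lengths the ratio to Klc2 was 2.36, and without a length correction those to Klc4 and Klc3 were 2.93 and 8.54. Klc3 was below the detection minimum, with 9.68, 11.25 and 17.18 counts. The heavy chain Kif5b was lower than Klc1 in 3 of 3 hearts (log2 ratio -1.17, SE 0.102, edgeR adjusted p = 2.47e-05), or -0.47 without a length correction. In the list of light chains and partners 6 of 7 genes in the table were detected, Klc1, Ktn1 (a kinesin-binding membrane protein, 122.7 ± 13.5 TPM) and Kxd1 (a subunit of a lysosome-positioning complex, 117.9 ± 11.3 TPM) being the highest.

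Cargo adaptors of these motors were present as well, with 18 of 20 detected and a summed level of 790.4 ± 39.9 TPM. Trak1, which links kinesin-1 to mitochondria, was at 159.2 ± 13.4 TPM. Arl8b, a lysosomal GTPase that recruits kinesin-1, was at 79.6 ± 3.72 TPM, and Rhot2, the mitochondrial anchor of Trak proteins, at 79.0 ± 1.37 TPM. Of 9 microtubule-binding genes that promote or hinder kinesin movement 8 were detected, with Map7d1 at 225.2 ± 16.4, Map4 at 172.4 ± 6.56 and Mapt at 11.6 ± 5.36 TPM. Map7d1 belongs to a family that recruits kinesin-1 to microtubules, and Mapt encodes tau.

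Among the remaining transport genes, Kif21a and Kif21b, which restrain microtubule growth, were at 6.25 ± 1.01 and 1.24 ± 0.187 TPM, and the first exceeded the second by 2.32 in log2 (SE 0.126, edgeR adjusted p = 1.80e-06). The minus-end directed motors Kifc3 and Kifc2 were at 35.4 ± 3.57 and 7.63 ± 0.862 TPM, a log2 ratio of 2.21. The strand setting of the counting is not known from the sources used here, so reads of genes that overlap on opposite strands cannot be told apart. Concerned were 7 genes of the set: Kif1bp, Kif20a, Kif2a, Kif3c, Kif4, Kif7 and Kifc3. Each had over 10% of its exon bases in such an overlap.

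**Figure D2:**
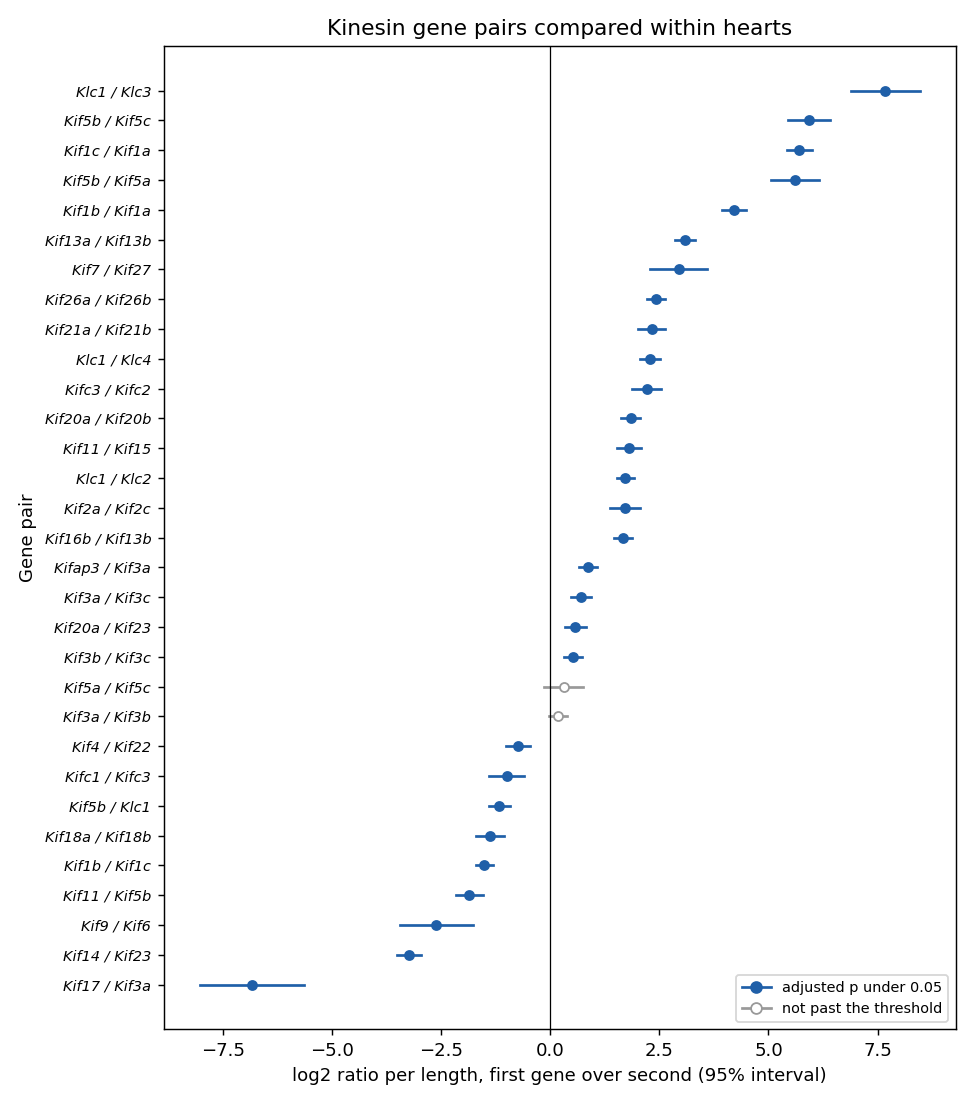
Log2 ratio per length of the first over the second gene (x axis) for each of the 31 pairs (y axis), with 95% intervals from the edgeR quasi-likelihood test over 3 hearts. The 29 filled points passed an adjusted p of 0.05, and the open points are Kif5a over Kif5c and Kif3a over Kif3b.

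The group of other genes was led by Kif1bp at 33.8 ± 1.81 TPM and Kif2a at 30.9 ± 2.55 TPM. Kif2a is a kinesin-13, a motor that takes microtubule ends apart and acts in non-dividing and dividing cells. It exceeded its mitotic paralog Kif2c by 1.72 in log2 (SE 0.146, edgeR adjusted p = 2.23e-05). Kif26a and Kif26b, atypical kinesins that bind microtubules and take part in signalling, were at 17.3 ± 0.978 and 3.23 ± 0.339 TPM, a log2 ratio of 2.43, or 1.51 without a length correction. Kif28 had 7, 10 and 10 counts.

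All 13 mitotic kinesins in the table were detected, from 1.80 ± 0.410 TPM for Kif14 to 25.5 ± 7.83 TPM for Kif20a. The central spindle motors of cytokinesis were Kif20a at 25.1, 33.5 and 17.8 TPM, Kif23 at 18.6, 19.2 and 12.6 TPM, and Kif20b at 6.51, 9.24 and 5.41 TPM. Kif20a exceeded Kif23 by a log2 ratio of 0.58 (edgeR adjusted p = 0.000983) and Kif20b by 1.85. Exons of Kif20a overlap those of Cdc23, a subunit of a mitotic ubiquitin ligase, on the opposite strand over 29.3% of their bases. Kif14, another cytokinesis motor, was lower than Kif23 by a log2 ratio of Kif14 to Kif23 of -3.23, or -2.02 without a length correction.

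Spindle motors were present at comparable levels. Kif11, the kinesin-5 that pushes spindle poles apart (chromosome 19, 37376403 to 37421859, plus strand), was at 15.7, 21.6 and 14.2 TPM. It exceeded Kif15, the motor that can stand in for it, by 1.81 in log2 (SE 0.113, edgeR adjusted p = 4.08e-06) and was below Kif5b (log2 ratio -1.85). Kifc1, a spindle-focusing kinesin-14, was at 19.9, 21.1 and 13.1 TPM. It was lower than Kifc3 of the same class in 3 of 3 hearts (log2 ratio of Kifc1 to Kifc3 -0.99, SE 0.168, edgeR adjusted p = 0.000886). Kif18b and Kif18a, kinesin-8 motors that limit microtubule length, were at 8.41 ± 1.48 and 3.22 ± 0.325 TPM, and Kif18a was the lower (log2 ratio -1.38, or -2.34 with the longest annotated transcripts as lengths). Kif22 and Kif4, which bind chromosome arms, were at 22.6 ± 5.25 and 13.6 ± 2.43 TPM. Their log2 ratio of Kif4 to Kif22 was -0.73 (edgeR adjusted p = 0.00053) and changed sign to 0.17 (edgeR adjusted p = 0.179) without a length correction.

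Heart 2 was the highest and heart 3 the lowest for most mitotic kinesins. On counts scaled by TMM (edgeR's correction of library size), 11 of the 13 had this order, as had 11.5% of all 12958 detected genes and 11.2% of the 6380 detected genes in the same range of scaled counts. The median ratio of heart 2 to heart 3 was 1.46 for the mitotic kinesins and 1.00 for all detected genes. Among transport kinesins 1 of 13 had that order, with a median ratio of 1.02, and among ciliary kinesins 1 of 6. The pattern was noticed in these values and carries no test.

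Among the 13, the ratio of heart 2 to heart 3 was largest for Kif20a (1.79), Kif2c, a microtubule depolymerase of the centromere (1.78), and Kif20b (1.70). It was 1.56 for Kif14, 1.54 for Kifc1, 1.49 for Kif4, 1.46 for both Kif23 and Kif11, 1.36 for Kif18b, 1.25 for Kif15 and 1.17 for Kif18a. Kif22 was also lowest in heart 3 but highest in heart 1, with 480, 451 and 322 counts. Kifc5b, a close copy of Kifc1, went the other way, with 108.6, 100.9 and 122.7 counts and a ratio of 0.818. Counts of Kifc1 and Kifc5b were not whole numbers, so reads may have been shared out among similar copies, and how they were split cannot be checked here. In all 10 of the 41 genes of the set had such counts, beside 15.5% of all genes.

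Genes that act with mitotic kinesins had the same order of hearts. Of 24 such partner genes, all detected, 22 were highest in heart 2 and lowest in heart 3, with a median ratio of heart 2 to heart 3 of 1.41. Their summed level was 546.0, 662.2 and 446.6 TPM, with Birc5, Prc1 and Racgap1, all of the central spindle or its kinase complex, the highest at 51.5 ± 7.22, 44.6 ± 7.20 and 40.6 ± 8.02 TPM. Cenpe, a kinesin of the kinetochore whose symbol lies outside the Kif pattern, was at 5.69, 8.82 and 5.20 TPM. Erythroid markers also had their highest sum in heart 2 and lowest in heart 3, at 9782, 10620 and 6332 TPM with none of 8 at 0. Endothelial markers were at 927.4, 1034 and 1001 TPM and fibroblast markers at 3585, 3796 and 3823 TPM. The part of these cell types in the order of the mitotic kinesins was not tested.

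**Figure D3:**
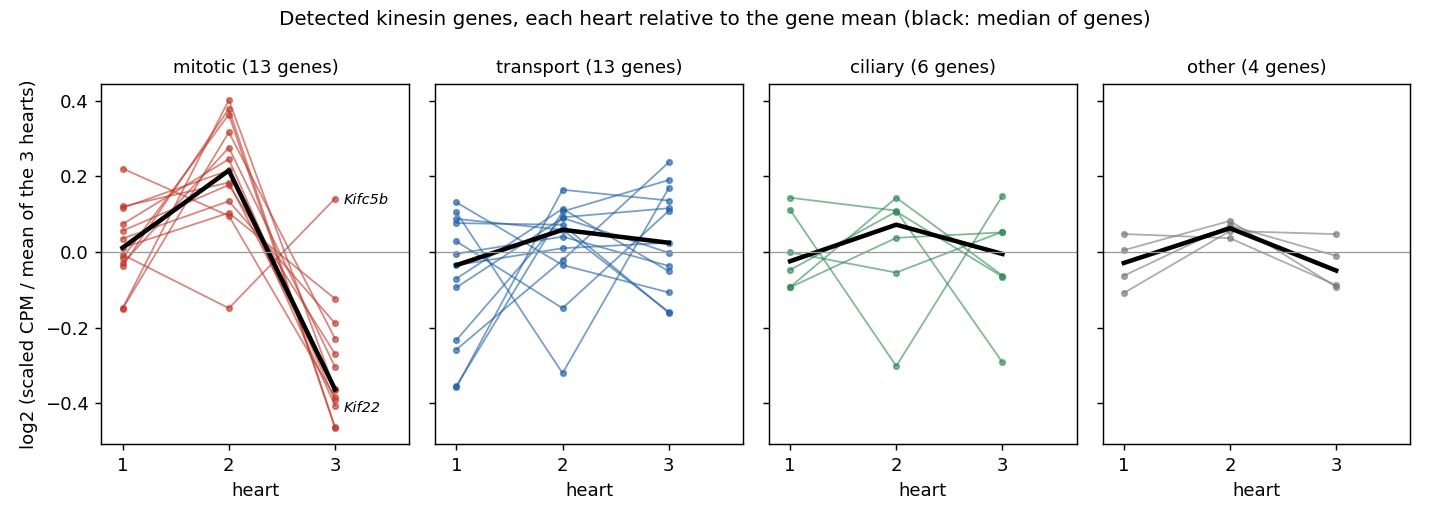
Log2 of scaled CPM over the mean of the 3 hearts (y axis) in hearts 1, 2 and 3 (x axis, no order implied) for the detected kinesins of each role; thin lines join the values of 1 gene and the black line is the median over genes. Mitotic kinesins were lowest in heart 3 in 12 of 13 cases, Kifc5b being the exception, against 4 of 13 transport, 2 of 6 ciliary and 2 of 4 other kinesins.

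Variation between hearts was tested for every gene with the edgeR goodness-of-fit statistic, which asks whether a gene varies more than genes of like abundance. Of the 41 genes of the set 40 were tested, with Kif1bp among them and Kif17 below the count filter. None of the 40 passed an adjusted p of 0.05, where 2.03% of all 14527 genes tested did. At an unadjusted p under 0.05 there were 5 kinesins (Kif19a, Kif20a, Kif20b, Kif5b and Kif2c), beside 6.05% of all genes. For Kif20a the edgeR adjusted p was 0.132, for Kif19a 0.0859 and for Kif5b 0.647. With DESeq2's dispersion trend none passed either. Between hearts 2 and 3 alone, without the heart high in airway markers, Kif20a (edgeR adjusted p = 0.000537), Kif20b (0.0383) and Kif2c (0.0403) passed, beside 0.828% of all genes. That run sets 1 library against 1 with the spread taken from other genes, and it is the contrast in which the order of hearts was noticed, so it is no separate support for that order. Without heart 2 or without heart 3 no kinesin passed, and 1 and 2 kinesins were at an unadjusted p under 0.05.

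Promoter sequences are shown for mitotic kinesins because 11 of these 13 genes shared an order of hearts. Of those printed, Kif22 and Kifc5b did not have that order. RefSeq promoters of GRCm38.p6, from 250 bases before to 50 bases after an annotated start, were matched by gene identifier. They covered 32 of the 41 genes (36 promoters), 12 of them mitotic. Kif20a was the mitotic gene without a match. For some genes the start used lies inside the gene. The promoter of Kif1bp, listed under the symbol Kifbp, is among the 36 but is left out of the counts by role below. It holds CCAAT but not the CHR letters described next. They were searched on both strands for the CHR letters TTTGAA, an element known from genes transcribed late in the cell cycle, and for CCAAT, the binding sequence of NF-Y. Matches of the 2 motifs were counted independently, and overlaps between them were allowed. In the lines below both are in capitals, also in their reverse form, and all other bases are in lower case. The mitotic promoters printed all hold both motifs, and the Kif1c promoter holds neither. Not printed are Kif15, Kif20b and Kif2c, which hold CHR alone, Kif18a, which holds neither, and Kif14 and Kif18b, which hold both. Positions are Kif11 chr19:37376132-37376431 (plus strand), Kif22 chr7:127042371-127042670 (minus), Kif23 chr9:61946750-61947049 (minus), Kif4 chrX:100625815-100626114 (plus), Kifc1 chr17:33890584-33890883 (minus), Kifc5b chr17:26916841-26917140 (plus) and, as a transport gene for comparison, Kif1c chr11:70700298-70700597 (plus).
Kif11: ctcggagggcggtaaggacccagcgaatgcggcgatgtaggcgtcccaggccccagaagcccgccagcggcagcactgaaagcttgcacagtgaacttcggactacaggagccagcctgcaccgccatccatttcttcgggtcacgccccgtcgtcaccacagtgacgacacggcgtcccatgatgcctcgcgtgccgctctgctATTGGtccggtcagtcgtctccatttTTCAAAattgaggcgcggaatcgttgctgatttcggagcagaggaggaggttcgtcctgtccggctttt
Kif22: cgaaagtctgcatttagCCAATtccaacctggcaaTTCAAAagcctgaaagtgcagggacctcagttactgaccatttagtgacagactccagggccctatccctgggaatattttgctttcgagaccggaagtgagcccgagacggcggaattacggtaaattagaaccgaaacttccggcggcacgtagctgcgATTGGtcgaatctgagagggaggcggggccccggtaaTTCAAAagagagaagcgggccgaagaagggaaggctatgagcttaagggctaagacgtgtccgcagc
Kif23: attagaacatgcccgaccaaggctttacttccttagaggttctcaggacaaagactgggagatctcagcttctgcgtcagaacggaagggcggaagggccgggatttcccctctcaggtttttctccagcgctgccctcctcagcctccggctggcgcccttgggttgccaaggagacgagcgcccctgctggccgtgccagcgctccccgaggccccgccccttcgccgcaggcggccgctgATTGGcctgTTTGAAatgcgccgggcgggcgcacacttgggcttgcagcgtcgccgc
Kif4: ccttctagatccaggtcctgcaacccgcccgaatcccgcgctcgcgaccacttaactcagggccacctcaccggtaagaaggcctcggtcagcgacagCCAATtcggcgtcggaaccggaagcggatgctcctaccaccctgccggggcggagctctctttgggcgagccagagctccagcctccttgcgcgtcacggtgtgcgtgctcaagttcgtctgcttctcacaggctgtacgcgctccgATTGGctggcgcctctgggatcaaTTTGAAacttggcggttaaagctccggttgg
Kifc1: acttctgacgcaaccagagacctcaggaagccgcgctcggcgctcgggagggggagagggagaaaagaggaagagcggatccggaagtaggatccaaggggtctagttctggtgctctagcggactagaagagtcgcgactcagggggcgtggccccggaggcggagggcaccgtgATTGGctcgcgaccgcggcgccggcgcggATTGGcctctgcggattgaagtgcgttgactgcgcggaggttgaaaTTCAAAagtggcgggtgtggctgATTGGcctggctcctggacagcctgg
Kifc5b: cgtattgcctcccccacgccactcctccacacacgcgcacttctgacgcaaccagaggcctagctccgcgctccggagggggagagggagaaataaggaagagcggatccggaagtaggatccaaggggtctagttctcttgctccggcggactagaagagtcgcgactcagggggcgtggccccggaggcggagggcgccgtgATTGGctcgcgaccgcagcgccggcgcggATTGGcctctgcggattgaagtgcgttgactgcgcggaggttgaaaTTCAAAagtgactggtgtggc
Kif1c: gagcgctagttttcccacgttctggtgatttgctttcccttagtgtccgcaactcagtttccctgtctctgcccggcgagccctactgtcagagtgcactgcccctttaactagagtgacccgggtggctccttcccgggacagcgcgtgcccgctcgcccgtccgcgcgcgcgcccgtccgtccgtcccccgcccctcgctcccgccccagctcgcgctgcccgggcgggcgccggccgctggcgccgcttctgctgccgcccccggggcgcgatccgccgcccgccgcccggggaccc

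The CHR letters were in the promoters of 11 of the 12 mitotic kinesins, or 91.7%, and Kif18a was the one without them. They were in 11.8% of the 13236 promoters of genes detected in these hearts and 17.9% of all promoters in the table. In 9 of the 12 they lay between 60 bases before the start and the window's end. That position held for 3.3% of promoters of detected genes and 5.5% of all promoters. The match nearest the start began 19 bases upstream in Kif11 and in Kif15 and 17 bases upstream in Kif22, and at base 3, 4 and 20 of the transcript in Kif23, Kif18b and Kif4. In Kif2c and Kif14 they lay farther out, 103 and 228 bases upstream. Both windows lie inside the gene. That of Kif2c is chr4:117178723-117179022, in a minus-strand gene from 117159633 to 117182624. That of Kif14 is chr1:136467598-136467897, in a plus-strand gene from 136466290 to 136555938. Of the promoters of transport kinesins 1 of 9 held CHR, one of the promoters of Kif1a, and of those of ciliary kinesins 1 of 10, that of Kif27. These windows also lie inside the gene, at chr1:93082431-93082730 for Kif1a and chr13:58354898-58355197 for Kif27. The Kif1a promoter at the outer start, chr1:93101825-93102124, held no CHR. Of the other kinesins 1 of 4 promoters held it, that of Kif26b, with CHR 9 and CCAAT 73 bases upstream. A match of letters describes the sequence and shows no binding.

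CCAAT was in 8 of 12 mitotic kinesin promoters, or 66.7%, in 5 of 10 ciliary, 2 of 9 transport and 1 of 4 other kinesin promoters, and in 37.5% of promoters of detected genes. Both motifs together were in 8 of 12, beside 4.8%. Partner genes of mitosis held CHR in 73.9% and CCAAT in 78.3% of 23 promoters. The promoters of Kifc1 and Kifc5b aligned over 272 columns with 91.2% identity and shared a run of 68 bases, and both hold CHR and CCAAT, although Kifc5b did not have the order of hearts seen for Kifc1.

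**Figure D4:**
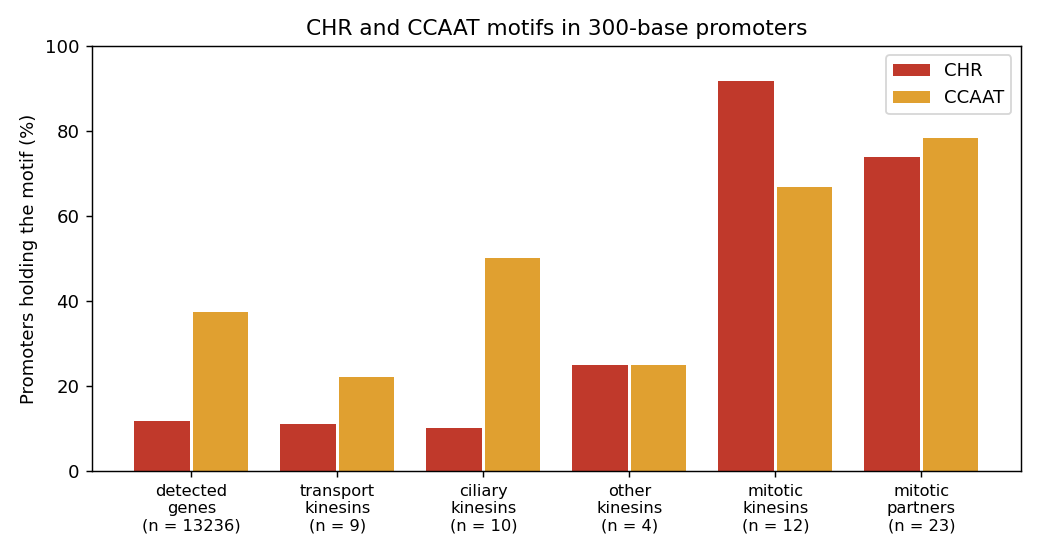
Share of 300-base promoters (y axis, percent) that hold CHR or CCAAT on either strand, for detected genes, each role of kinesins and mitotic partner genes (x axis, n promoters). CHR stands at 91.7% for mitotic kinesins against 11.8% for detected genes. The promoter of Kif1bp is in none of the role bars.

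Ciliary kinesins were lower. Kif3a, Kif3b and Kif3c are the motor subunits of kinesin-2, which drives transport into cilia, with Kif3c mainly known from neurons. Kif3a was at 11.8, 13.1 and 11.1 TPM, Kif3b at 10.1, 11.04 and 10.7 TPM and Kif3c at 7.47, 7.18 and 7.39 TPM. Kif3a and Kif3b, which pair in the motor, were not distinguished by the test (log2 ratio 0.18, 95% interval -0.03 to 0.38, edgeR adjusted p = 0.0852), though Kif3a was higher in 3 of 3 hearts. With the longest annotated transcript as length Kif3a was called higher (0.96, edgeR adjusted p = 2.60e-05). Both exceeded Kif3c, by 0.70 for Kif3a (1.48 with the longest transcripts) and 0.53 for Kif3b. Kif3c overlaps antisense genes over 40.7% of its exon bases. Kifap3, the third subunit of the motor, exceeded Kif3a by 0.87 (edgeR adjusted p = 4.47e-05), a call that was lost with the longest transcripts (0.04, edgeR adjusted p = 0.635).

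Kif7, which regulates Hedgehog signalling at the cilium tip, was at 3.56, 2.68 and 3.69 TPM and exceeded its paralog Kif27 by 2.95 in log2 (SE 0.272, edgeR adjusted p = 3.35e-05). Kif7 overlaps Ticrr and an antisense gene over 20.3% of its exon bases. Kif24, which restrains cilium formation at the centriole, was at 1.20 ± 0.0706 TPM. Of 17 cilium transport and Hedgehog genes all were detected, with Ift20 at 87.5 ± 7.42, Ift81 at 39.7 ± 7.24 and Smo at 36.5 ± 2.90 TPM. Kif17, the accessory ciliary motor best known from neurons, had 5, 1 and 3 counts, so its log2 ratio to Kif3a of -6.82 (95% interval -8.02 to -5.63) rests on few counts; it was -7.61 without a length correction and -7.73 with the longest transcripts.

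Kinesins of motile cilia were near or below the detection minimum. Kif19a, which sets the length of motile cilia, had 26, 7 and 2 counts in hearts 1, 2 and 3. Kif9 had 23, 11 and 14 counts and Kif27 had 20, 19 and 17. Kif6, also of motile cilia, differed from them in being detected, at 97, 117 and 101 counts, and exceeded Kif9 (log2 ratio of Kif9 to Kif6 of -2.61, edgeR adjusted p = 0.000251). Kif19a and Kif9 were highest in heart 1. Motile cilium markers were highest there as well, with a sum of 24.6, 5.12 and 5.65 TPM over 13 genes and 0, 5 and 4 of them at 0. Foxj1, the master regulator of motile cilia, had 35, 5 and 5 counts, and Scgb1a1, the secretory protein of airway club cells, had 4096, 1 and 13. The part of airway cells in the counts of Kif19a and Kif9 was not tested.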

How the data were processed

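Expected counts and FPKM per gene for 3 heart samples were used as the authors deposited them, per the file headers. The submitters' processing notes name HISAT and GRCm38.p6. For the counting tool, annotation and strand setting the sources used here give nothing. All 18038 genes are marked as mRNA, and 1 line of spilled annotation text was left out. Fractional counts were rounded for the tests. Starts and ends are those of the table. Strands are from GENCODE, from which the table's strand differed for 10 genes of the set. Kif2b and Kif12 are not analysed here, and neither are protein sequences. One gene in an overlap with a kinesin is not reported here.

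The kinesin set and gene lists were chosen with earlier results of these data known. All detected members and all pairs are named, and of each partner list the 3 highest genes and any that varied.

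edgeR 4.0.16 (R 4.3.3) was used for the pair test (heart as block, TMM library size times the length implied by the authors' counts and FPKM). The spread prior (4.44 degrees of freedom) came from a fit of all genes. Variation was tested by goodness of fit to the trended dispersion (intercept only, 2 degrees of freedom, one-sided) over genes with 0.5 CPM in at least 1 heart. Both used Benjamini-Hochberg adjustment and a threshold of 0.05, and both were tested on simulated data. Role sums carry no test, since with 3 hearts the smallest p of an exact two-sided sign-flip test is 0.25. Alternatives were DESeq2 1.42.0, other size factors, lengths, filters and dispersions, and leaving out each heart.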

Additional observations from a re-analysis of the deposited data

How the results depend on the processing

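Without a length correction the shares of the family sum were 13.6% for mitotic, 71.3% for transport and 9.47% for the other kinesins. With the longest annotated transcripts they were 7.34% for ciliary and 11.1% for the other genes. Without the highest gene of each role they were 48.4% for transport, 3.99% for ciliary and 7.73% for the other genes. Of the 31 pair ratios, Kif4 to Kif22 changed sign without a length correction (0.17). With the longest transcripts Kif3a to Kif3b gained its call and Kifap3 to Kif3a lost it. The 29 calls were 28 without a length correction and 29 under every other alternative run, including the fit with no replicate block. The 295 variable genes were 193 with DESeq2's dispersion trend, and 117 to 149 when a heart was left out, where the test holds fewer samples. Kinesins among them numbered 0 to 3 when a heart was left out, and 1, Kif19a, with a common dispersion. The mitotic order of hearts, 11 of 13 genes, held for 11 with DESeq2 size factors and 10 on TPM, alternatives chosen after seeing the data. On TPM the order was more common elsewhere too, in 17.9% of all detected genes. It was then found in 3 of 13 transport, 3 of 6 ciliary and 2 of 4 other kinesins, so the contrast with ciliary and other kinesins was smaller. For genes of few counts such as Kif17 and Kif28, counting error limits any comparison.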

Other observations

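Stard9, a large kinesin of the centriole that carries a former Kif symbol and lies outside the Kif pattern, was at 8.10 ± 1.67 TPM (SD, n = 3) and highest in heart 2, with 895.0, 1373 and 1042 counts in hearts 1, 2 and 3. It was named after its values were seen. Mapt, the tau gene, was the one gene of the partner lists that varied between hearts, at 6.43, 11.3 and 17.1 TPM (edgeR goodness of fit, adjusted p = 2.98e-05, n = 3 hearts). The sum of smooth muscle and pericyte markers had the same order of hearts, at 756.4, 1331 and 1601 TPM over 7 genes, none at 0. On TPM, Rgs5, Pdgfrb and Cspg4 of this list were highest in heart 2 instead. The part of these markers in the level of Mapt was not tested. Acta2, the smooth muscle actin gene of the list, was at 303.0, 670.5 and 917.8 TPM and passed the same test (edgeR adjusted p = 8.24e-09).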
